A study of Homo sapiens with 8 samples.

Results

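The comparison described here set HTETOP cells given 100 µM dexrazoxane for 24 h against HTETOP cells given vehicle for 24 h, on 3 arrays per group. These were the 6 of the 8 arrays of the series whose titles name dexrazoxane or its control, and same-numbered arrays were treated as pairs. HTETOP, an established human cell line, descends from the fibrosarcoma line HT1080 and carries topoisomerase II alpha (TOP2A) under the control of tetracycline. Dexrazoxane was the agent by which the study set out to inhibit the TOP2A enzyme. The labels name no doxycycline for these 6 arrays, so as far as the labels say TOP2A was not silenced in either group. RNA pooled from 3 cell passages was hybridised to each array, per the labels, so an array gives an average over passages of 1 line. Nothing in the labels says that the numbered arrays were separate cultures, so p-values here reflect spread among arrays that could be technical. Values are log2 expression per probe set, a difference of 1 is a 2-fold change, and every difference is dexrazoxane minus vehicle. Of 19775 genes with a probe set of their own, 14731 passed a filter on dim signals and were tested.

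Type II topoisomerases pass 1 DNA double helix through a transient break in another, which untangles sister chromosomes before they are parted in mitosis. Dexrazoxane is a bisdioxopiperazine, which holds the enzyme as a closed clamp around DNA after the strand has passed, and its hydrolysis product binds iron. It is used in patients to protect the heart from anthracyclines. DNA damage is known to stabilise p53, a transcription factor whose targets halt the cell cycle, aid repair and promote cell death. Through p21, p53 is also known to lower cell cycle transcripts by way of retinoblastoma family proteins and the DREAM complex.

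In the paired limma fit, 357 genes (2.42% of those tested) were higher and 360 (2.44%) were lower with dexrazoxane at a Benjamini-Hochberg adjusted p under 0.05, together 717 (4.87%). Every count of called genes in a list below is to be read beside these shares. With each array centred on the median of the tested genes, a setting added after seeing the data, 244 were higher and 467 lower. The changes were small, with a median absolute difference of 0.43 among called genes, or 1.35-fold, and 7 genes past 2-fold. The genes that fell held much of the machinery of DNA replication, chromosome segregation and homologous recombination, together with genes of long genomic span for channels, adhesion and guidance. Genes that rose held targets of p53, autophagy and lysosome genes, and single genes of stress and secretion. All 357 and all 360 moved the same way in 3 of 3 pairs, which over all genes tested 25.7% did upward and 19.4% downward. The arrays of the groups did not overlap for 216 of the higher and 148 of the lower genes, against 6.53% of all genes lying wholly above and 3.62% wholly below, or 10.1% in either direction. Both counts come from the same values as the calls, which favour genes that move alike in each pair, so they add no separate support.

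Every call rests on the pairing. Without the pair as a block, limma called 0 genes (lowest adjusted p = 0.095), and 765 (5.19%) had an unadjusted p under 0.05, among them 267 of the 357 higher and 205 of the 360 lower genes. Arrays numbered 1 stood apart in both groups: the SD of differences across genes was 0.35 and 0.36 between vehicle array 1 and the other vehicle arrays and 0.22 between vehicle arrays 2 and 3, and with dexrazoxane it was 0.37 and 0.36 against 0.29. Same-numbered arrays deviated together from their group means, with correlations across genes of 0.82, 0.57 and 0.72, while differently numbered arrays gave -0.63 to 0.18. Leaving out pair 1 left 42 higher (0.285%) and 56 lower genes (0.38%). Leaving out pair 2 gave 416 (2.82%) and 414 (2.81%), and leaving out pair 3 gave 211 (1.43%) and 200 (1.36%). Of 182 called genes picked by the naming rule, 52 kept their call with each pair left out in turn.

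**Figure D1:**
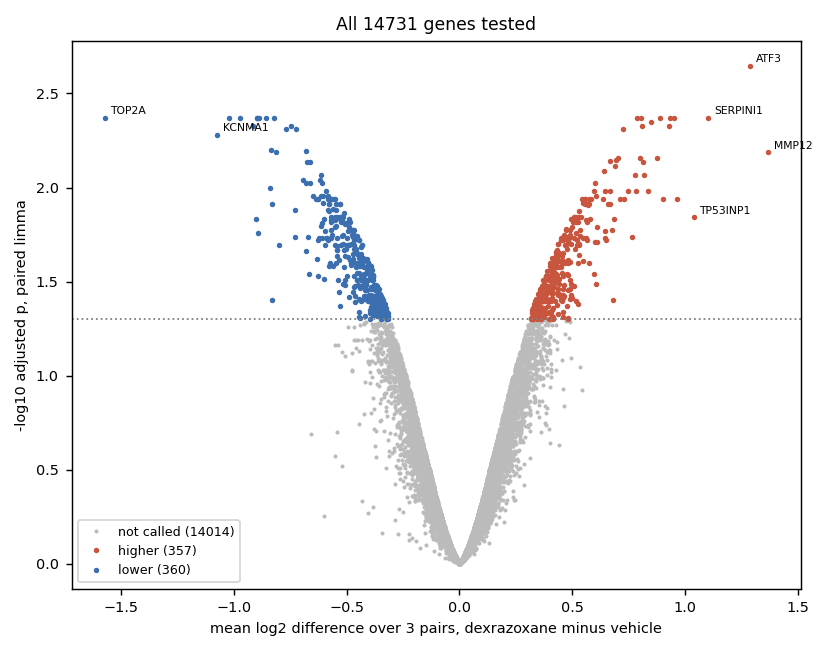
Mean log2 difference over 3 pairs (x axis, dexrazoxane minus vehicle) against minus log10 of the adjusted p from the paired limma fit (y axis) for the 14731 genes tested, 1 point each; the dotted line marks an adjusted p of 0.05. The 357 genes called higher and the 360 called lower lie mostly within 1 unit of 0, and TOP2A, at -1.57, lies farthest from it.

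The array-1 offset had a recognisable content. Relative to the mean of the 6 arrays, the 89 tested genes of 3 mitosis lists (kinases and cyclins, kinetochore, spindle) had a median of 0.56 on vehicle array 1, -0.06 on vehicle array 2 and 0.04 on vehicle array 3. With dexrazoxane the same genes had medians of 0.19, -0.33 and -0.36 on arrays 1 to 3. Arrays numbered 1 thus read higher for cell cycle transcripts in both groups, and dexrazoxane array 1 lay above vehicle arrays 2 and 3. Whether this came from the cells or from the handling of the arrays was not tested. For 68 genes of 4 p53 target lists the medians were -0.20, -0.11 and -0.04 on the vehicle arrays and 0.08, 0.08 and 0.11 on the dexrazoxane arrays, with no overlap. All genes tested together stayed between -0.03 and 0.02 on every array. In bulk RNA, fewer cells in a phase and less RNA per cell cannot be told apart.

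**Figure D2:**
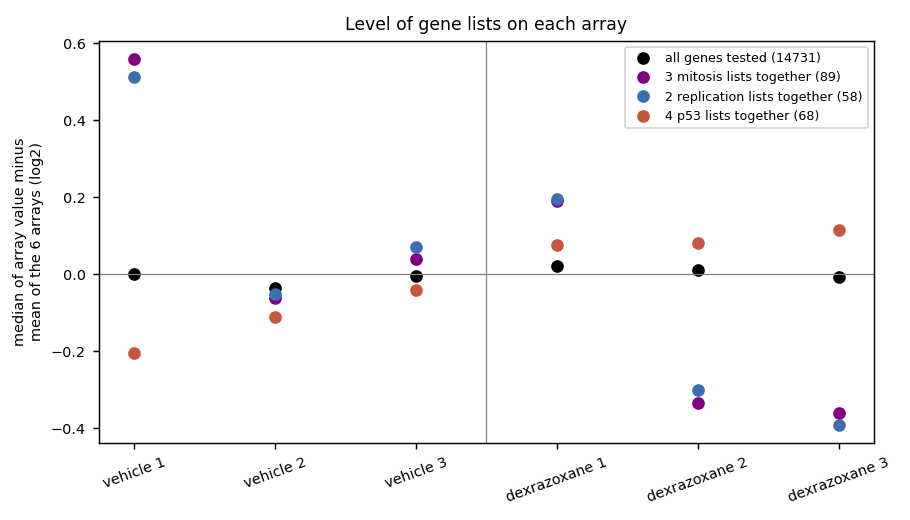
Median over the genes of a list of each array's log2 value minus the mean of the 6 arrays (y axis), for the 6 arrays (x axis, vehicle left of the line); points are all 14731 genes, 3 mitosis lists, 2 replication lists and 4 p53 lists, with the number of genes in brackets. The medians of mitosis and replication genes are lower with dexrazoxane within each pair but start from a higher level in pair 1, while the p53 targets are lower on all 3 vehicle arrays than on all 3 dexrazoxane arrays.

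TOP2A itself had log2 values of 12.41, 12.55 and 12.40 on the vehicle arrays and 11.20, 10.92 and 10.52 on the dexrazoxane arrays, the largest fall of any gene tested. The groups were far apart, with a difference of -1.57 ± 0.12 (SE, paired limma, adjusted p = 0.0043), or 2.97-fold lower. HTETOP cells carry TOP2A under the control of tetracycline, so this fall cannot be read as a change of native TOP2A transcription. What lowered it was not tested. TOP2B, which encodes the beta isoform, read 10.02, 9.97 and 9.73 with vehicle, differed by -0.02, -0.24 and -0.13 in the 3 pairs, and its mean difference of -0.13 ± 0.08 was not called (limma adjusted p = 0.37).

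Promoters of genes from the falling groups are shown first, since replication and mitosis genes are known to be controlled by different short elements. The letters searched, on both strands of the 250 bases before the start site, were CCAAT (the NF-Y box), TTTGAA (the cell cycle homology region bound by DREAM and MuvB complexes), TTTCGCGC, TTTGGCGC and GGCGGGAA (E2F-type sites) and TGACGTCA (the cAMP response element). Sequences are from RefSeq on GRCh38.p14, printed 5′ to 3′ on the strand of the gene, and capitals mark every match on either strand. MCM6 (chr2:135876444-135876693, minus strand) and PRIM1 (chr12:56752324-56752573, minus strand) are replication genes, and HMMR (chr5:163460382-163460631, plus strand), DLGAP5 (chr14:55191586-55191835, minus strand) and KIF15 (chr3:44761544-44761793, plus strand) are spindle genes.
MCM6: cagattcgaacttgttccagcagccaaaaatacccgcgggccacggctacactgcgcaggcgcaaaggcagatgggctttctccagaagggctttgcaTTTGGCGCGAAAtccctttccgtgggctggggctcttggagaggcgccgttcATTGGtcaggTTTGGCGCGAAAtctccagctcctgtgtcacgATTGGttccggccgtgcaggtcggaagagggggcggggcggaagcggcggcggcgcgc
PRIM1: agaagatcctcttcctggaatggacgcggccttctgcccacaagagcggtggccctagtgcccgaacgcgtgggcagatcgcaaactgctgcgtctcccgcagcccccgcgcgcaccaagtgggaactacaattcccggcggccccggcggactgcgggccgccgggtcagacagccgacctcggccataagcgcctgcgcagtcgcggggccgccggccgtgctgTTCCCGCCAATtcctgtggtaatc
HMMR: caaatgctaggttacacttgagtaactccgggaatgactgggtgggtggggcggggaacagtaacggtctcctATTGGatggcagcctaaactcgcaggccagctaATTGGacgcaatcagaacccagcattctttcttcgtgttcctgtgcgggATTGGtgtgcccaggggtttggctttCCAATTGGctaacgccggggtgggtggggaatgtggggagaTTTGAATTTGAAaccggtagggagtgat
DLGAP5: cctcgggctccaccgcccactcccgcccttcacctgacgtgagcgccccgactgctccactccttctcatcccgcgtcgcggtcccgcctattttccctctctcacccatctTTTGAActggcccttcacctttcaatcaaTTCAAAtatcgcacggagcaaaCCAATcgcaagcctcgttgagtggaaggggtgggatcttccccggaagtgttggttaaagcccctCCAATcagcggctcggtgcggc
KIF15: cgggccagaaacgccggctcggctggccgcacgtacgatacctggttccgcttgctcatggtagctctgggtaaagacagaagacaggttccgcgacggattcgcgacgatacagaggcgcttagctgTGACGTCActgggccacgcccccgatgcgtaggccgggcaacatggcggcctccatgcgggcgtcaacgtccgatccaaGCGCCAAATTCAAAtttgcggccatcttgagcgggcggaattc
In MCM6 the letters TTTGGCGC and GCGCGAAA, which is TTTCGCGC read on the other strand, overlap in a 12-base run that occurs at 2 places, each followed by ATTGG, which is CCAAT on the other strand. PRIM1 holds TTCCCGCC, which is GGCGGGAA read on the other strand, overlapping CCAAT. HMMR holds 5 matches to CCAAT or ATTGG, and TTTGAA in tandem close to its start. DLGAP5 holds TTTGAA, its reverse complement TTCAAA and CCAAT, and KIF15 joins GCGCCAAA to TTCAAA, so an E2F-type match and a cell cycle homology match lie end to end. Each spindle gene shown holds TTTGAA on either strand, against 38.4% of genes of the mitosis lists. Each replication gene shown holds E2F-type letters, against 26.5% of genes of the replication lists. The promoters shown are thus examples of matches and not typical of their lists.

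Shares of promoters with each set of letters were then counted. RefSeq promoters were matched for 11747 of the 14731 genes tested, and 34.3% of these held CCAAT, 9.11% TTTGAA and 5.61% any E2F-type letters. Among 73 genes of the mitosis lists with a promoter, 68.5% held CCAAT, 38.4% TTTGAA, 32.9% both of these and 16.4% E2F-type letters. Of 49 genes of the 2 replication lists, 53.1% held CCAAT, 26.5% E2F-type letters and none TTTGAA. In the 4 p53 lists, where calls were upward, 17.2% of 58 genes held E2F-type letters, 13.8% TTTGAA and 31% CCAAT. E2F-type letters were thus not particular to the lists that fell. The 302 genes called lower with a promoter held TTTGAA in 17.9%, and the 286 called higher in 6.29%. In the 67 called-lower genes spanning over 200 kb the shares were 25.4% for CCAAT, 10.4% for TTTGAA and 2.99% for E2F-type letters. These shares describe letters in a window and not sites in use.

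Many genes of the replication machinery fell. Of 18 tested genes for origin licensing and the MCM helicase, 10 fell and none rose, with a median difference of -0.38 beside 0.02 over all genes tested. Of 40 genes for the fork and the polymerases, 20 fell and none rose, with a median of -0.36. Over both lists 54 of 58 genes lay below 0, 30 were called lower (51.7%, against 2.44% of all genes), 4 without pair 1 and 16 without pair 3. Dexrazoxane arrays lay wholly below the vehicle arrays for 9 of the 58, against 3.62% of all genes.

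MCM6, a subunit of the helicase that opens the double helix at origins, read 10.77, 9.90 and 9.94 with vehicle and 10.05, 9.18 and 9.06 with dexrazoxane. The groups overlapped through the high vehicle array 1 and dexrazoxane array 1, but each pair fell, by 0.77 ± 0.08 on average (SE, limma adjusted p = 0.0049). PRIM1, the catalytic subunit of primase, which lays the RNA primers for new strands, read 10.38, 9.94 and 10.04 with vehicle and 9.80, 9.42 and 9.32 with dexrazoxane, without overlap. Its difference was -0.61 ± 0.08 (limma adjusted p = 0.011). POLA1, the DNA polymerase alpha subunit that extends those primers, read 8.46, 7.80 and 7.72 with vehicle and 7.89, 7.17 and 7.07 with dexrazoxane. Its falls of about equal size in each pair gave -0.62 ± 0.07 (limma adjusted p = 0.0091). WDHD1, which tethers polymerase alpha to the helicase, differed by -0.61 ± 0.08. The initiation factors MCM10 (-0.58), CDC6 (-0.58) and CDC45 (-0.60) and the helicase proteins MCM4 (-0.53) and MCM8 (-0.53) were also called lower. GINS2, a helicase partner, was called at -0.68 on its brightest probe set, but another probe set preferred for specificity gave -0.03. PCNA, the sliding clamp and also a p53 target, was not called (0.13 ± 0.08, limma adjusted p = 0.38), and neither was MCM2 (-0.38 ± 0.09, limma adjusted p = 0.059). MCM6, POLA1 and WDHD1 kept their calls with any single pair left out, whereas PRIM1 had an adjusted p of 0.051 without pair 1.

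Nucleotide supply genes fell by less. Of 24 tested genes 2 were called lower (8.33%, against 2.44% of all genes), the ribonucleotide reductase subunits RRM2 (-0.52 ± 0.08) and RRM1 (-0.36 ± 0.08), and the median over the list was -0.12. Dexrazoxane arrays lay wholly below the vehicle arrays for 7 of the 24, against 3.62% of all genes, and wholly above for 1. In each of 3 pairs 14 lay below 0, against 19.4% of all genes, and 4 above, against 25.7%. RRM2 was distinct between the groups, at 11.78, 11.52 and 11.60 with vehicle and 11.27, 11.07 and 10.99 with dexrazoxane. Neither was called without pair 1 (limma adjusted p = 0.066 and 0.12).

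Many genes of mitosis fell too. Among 26 mitotic kinases, cyclins and phosphatases 16 were called lower (61.5%), among 32 kinetochore and centromere genes 15 (46.9%) and among 31 spindle, kinesin and cytokinesis genes 18 (58.1%), and none was called higher. Over all genes tested, 2.44% were called lower. The list medians were -0.37, -0.35 and -0.36, and 87 of the 89 genes lay below 0. Without pair 1 the count called lower was 7 of 89, and without pair 3 it was 21. Dexrazoxane arrays lay wholly below vehicle arrays for 12 of the 89, against 3.62% of all genes.

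TTK, the kinase that sets the spindle checkpoint, read 9.64, 9.20 and 9.30 with vehicle and 9.19, 8.50 and 8.64 with dexrazoxane. The highest dexrazoxane array lay just under the lowest vehicle array, and the difference was -0.60 ± 0.08 (SE, limma adjusted p = 0.012). CDK1, the kinase that drives entry into mitosis, read 11.25, 10.76 and 10.85 with vehicle and 10.72, 10.23 and 10.33 with dexrazoxane, a difference of -0.53 ± 0.07 (limma adjusted p = 0.012). Its fall was nearly the same in each pair, although without pair 1 the adjusted p was 0.062 and as the mean of its probe sets it was 0.10. CCNA2 (cyclin A2, -0.62 ± 0.10) and BUB1B (a checkpoint kinase, -0.53 ± 0.08) were called as well, as were AURKA (-0.38 ± 0.08), a kinase of the spindle poles, and CCNB1 (cyclin B1, -0.40 ± 0.07). PLK1, another mitotic kinase, was not (-0.14 ± 0.10, limma adjusted p = 0.47).

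At the kinetochore, the structure that joins chromosomes to microtubules, CENPE, a motor, read 9.54, 8.39 and 8.76 with vehicle and 9.10, 7.79 and 7.78 with dexrazoxane. Pair 1 lay above the other pairs in both groups, and the paired difference was -0.67 ± 0.11 (limma adjusted p = 0.018). CENPQ (-0.58 ± 0.08), a component of the inner kinetochore, and SPC25 (-0.54 ± 0.09) and NDC80 (-0.52 ± 0.08), parts of the complex that grips microtubules, fell too. HMMR, a spindle pole protein whose promoter is printed above, read 11.05, 10.84 and 10.73 with vehicle and 10.69, 10.13 and 10.01 with dexrazoxane. Its groups did not overlap, with a difference of -0.60 ± 0.09 (limma adjusted p = 0.017). ASPM (-0.68 ± 0.08), which focuses spindle poles, the kinesins KIF15 (-0.64 ± 0.08) and KIF11 (-0.53 ± 0.09), and DLGAP5 (-0.54 ± 0.09), which binds spindle microtubules near chromosomes, completed the largest falls of the spindle list. TTK, CENPE, CENPQ, HMMR, ASPM, KIF15 and DLGAP5 kept their calls with any single pair left out.

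The degradation machinery of mitotic exit stood outside this pattern, with 1 of 17 genes called lower and a median of -0.05. The called gene was FBXO5 (EMI1), an inhibitor of the anaphase-promoting complex and itself an E2F target, at 9.84, 9.56 and 9.60 with vehicle and 9.30, 8.74 and 8.88 with dexrazoxane. Its arrays did not overlap and its difference was -0.69 ± 0.08 (limma adjusted p = 0.0091), with the call kept without any single pair.

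Condensin, cohesin and chromosome structure genes gave 8 of 26 lower (30.8%, against 2.44% of all genes) and a median of -0.30. TOP2A, under the control of tetracycline in this line, was one of these. Behind it came ESCO2 (-0.50 ± 0.09), which acetylates cohesin, NCAPG (-0.48 ± 0.07) and NCAPH (-0.47 ± 0.08), subunits of condensin, and SGO2 (-0.44 ± 0.09), which protects cohesin at centromeres. Without pair 1, 1 of the 26 was called, and without pair 3, 3.

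Regulators above these genes moved in a mixed way. Of 23 E2F and pocket protein genes 5 fell and 1 rose, with a median of -0.13, and without pair 1, 1 was called lower and none higher. RBL1 (p107), a pocket protein, read 7.13, 6.17 and 6.07 with vehicle and 6.65, 5.70 and 5.19 with dexrazoxane. Each pair fell, to a mean difference of -0.61 ± 0.10 (limma adjusted p = 0.019). E2F8 (-0.55 ± 0.10), a repressor of E2F genes, LIN9 (-0.51 ± 0.08), a MuvB subunit, and UHRF1 (-0.39 ± 0.08), which helps to copy DNA methylation, fell as well. The rise was in LIN37, another MuvB subunit, whose probe sets disagree in sign. Without pair 1 RBL1 (-0.68), E2F8 (-0.52), LIN9 (-0.48) and LIN37 (0.51) kept their sign and similar sizes but not their calls. CCNE2 (cyclin E2) read 8.68, 7.87 and 7.74 with vehicle and 8.29, 7.20 and 6.97 with dexrazoxane, a difference of -0.61 ± 0.09 (limma adjusted p = 0.015) that held without any single pair. In the list of 13 G1 cyclins and CDK inhibitors, SKP2 (-0.55 ± 0.07), which targets p27 for destruction, and CDK6 (-0.32 ± 0.07) fell while CDKN1A rose, and none of the 13 was called without pair 1.

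Homologous recombination genes, which copy an intact sister to repair breaks, gave 10 of 29 lower (34.5%, against 2.44% of all genes). Their median was -0.29, and none was higher. BRIP1 (-0.63 ± 0.11), the helicase partner of BRCA1, EXO1 (-0.62 ± 0.09), an exonuclease that also serves mismatch repair, MND1 (-0.57 ± 0.09), BARD1 (-0.55 ± 0.09), the other partner of BRCA1, and RAD51AP1 (-0.55 ± 0.08) were among them. RAD51AP1, which aids the strand invasion step, read 10.18, 9.75 and 9.87 with vehicle and 9.74, 9.15 and 9.27 with dexrazoxane, just short of overlap. Fanconi anaemia genes, which undo crosslinks between strands, gave 4 of 14 lower. FANCI read 9.59, 9.04 and 8.90 with vehicle and 9.12, 8.40 and 8.13 with dexrazoxane, and its fall of 0.63 ± 0.08 (limma adjusted p = 0.012) was seen in each pair although the groups overlapped. Mismatch repair and translesion genes gave 5 of 13 lower, with MSH6 at -0.42 ± 0.08. Damage kinases and checkpoint mediators gave 5 of 17 lower, with WEE1 (-0.47 ± 0.08), which restrains CDK1, CHEK1 (-0.44 ± 0.08), RAD1, TOPBP1 and CLSPN. Without pair 1 the 4 lists had 1, 1, 0 and 0 genes called lower, and without pair 3 they had 8, 3, 1 and 1.

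Other repair lists had few calls. End joining and removal of protein adducts, the routes known to deal with trapped topoisomerase, had 0 of 17 genes called, and TDP1, which frees DNA ends from topoisomerase, was the member with the lowest p (-0.26 ± 0.07, limma adjusted p = 0.079). Base and nucleotide excision repair gave 2 higher and 2 lower of 27. NEIL3 (-0.49 ± 0.07) and UNG (-0.42 ± 0.08), glycosylases that cut out damaged bases or uracil, fell, and the p53 targets XPC and DDB2, which recognise ultraviolet lesions, rose.

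In chromatin and the nuclear envelope the counts were smaller. LMNB1 (lamin B1), whose loss is a known mark of senescent cells, read 9.41, 8.41 and 8.96 with vehicle and 9.02, 7.83 and 8.27 with dexrazoxane. It fell by 0.55 ± 0.08 (limma adjusted p = 0.016), also with any single pair left out, while the groups overlapped. With TMPO (-0.48 ± 0.09), a lamin partner, it was among 4 lower genes of the 29 for lamina and pore. Histone variant and chaperone genes gave 3 of 20 lower and a median of -0.24, led by HJURP (-0.44 ± 0.08), which loads the centromeric histone. Replication-dependent histones gave 1 higher of 14, H4C8 (0.51 ± 0.07), and none lower. Of the 29 high-mobility and remodelling genes 3 fell, among them HELLS (-0.54 ± 0.09). Without pair 1, 1 lamina gene, no histone gene of either list and no remodelling gene was called. Of 19 tested senescence-associated secreted genes 1 was called higher, MMP3 (5.26%, against 2.42% of all genes), and none lower. The median of that list was -0.10, with 0.16, -0.09 and -0.08 in pairs 1 to 3.

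**Figure D3:**
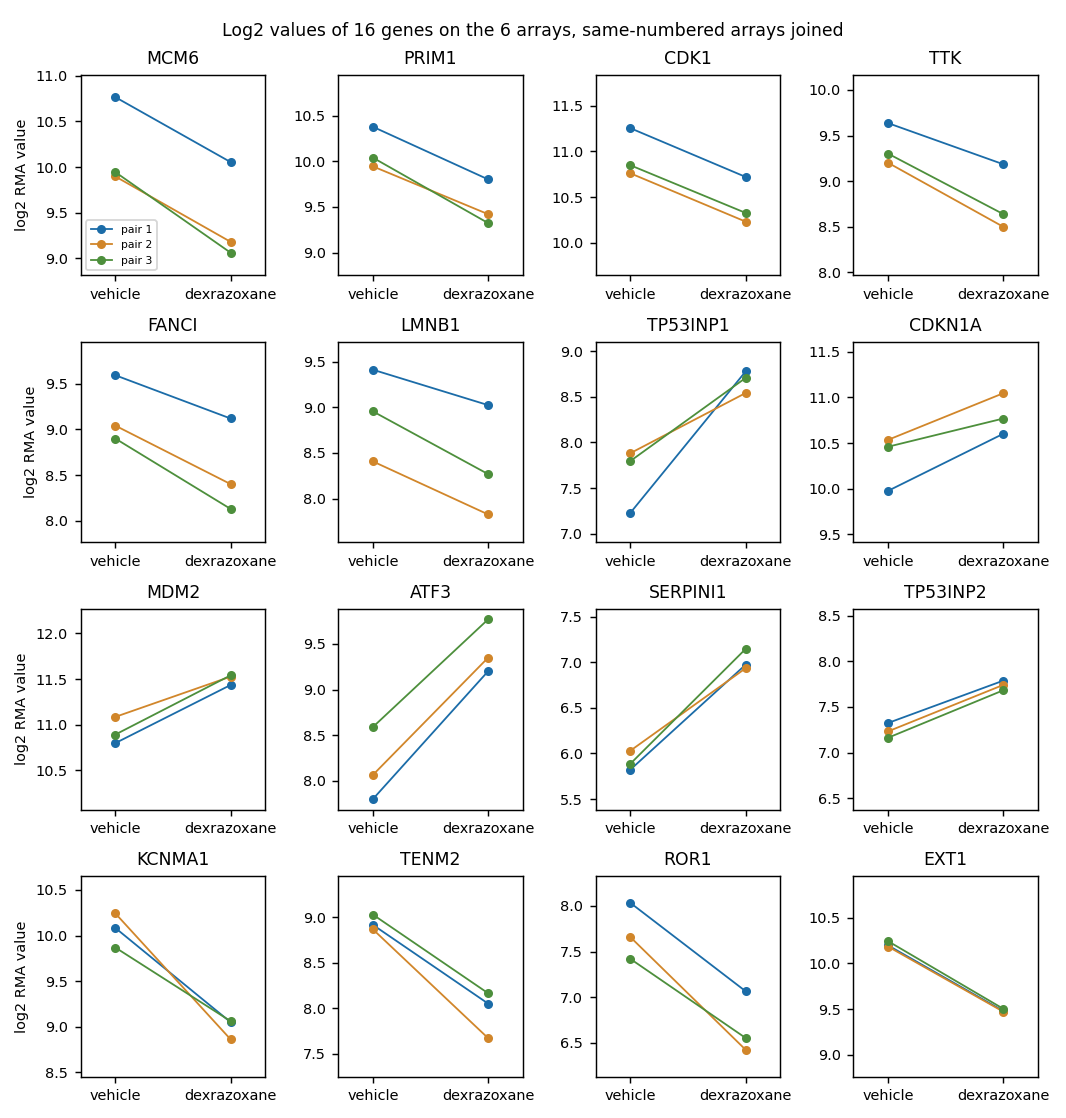
Log2 RMA values (y axis) of 16 genes on the vehicle and dexrazoxane arrays, with same-numbered arrays joined and coloured by pair; every panel spans at least 2.2 log2 units. Replication, mitosis and repair genes fall in parallel from different starting levels, p53 targets and stress genes rise, and the 4 genes of the bottom row fall without overlap between the groups.

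Some targets of p53 rose. Of 68 tested genes on 4 lists, 19 were called higher (27.9%, against 2.42% of all genes) and none lower, 57 lay above 0, and the median was 0.22. By function these were 4 of 10 feedback and stability regulators, 7 of 20 genes of arrest, repair and nucleotides, 4 of 17 of death, survival and membrane, and 6 of 24 of metabolism and other roles, some genes being on more than 1 list. Dexrazoxane arrays lay wholly above the vehicle arrays for 24 of the 68, against 6.53% of all genes. Pair 1 contributed most, with a median of 0.34 against 0.19 and 0.16 in pairs 2 and 3, and without pair 1 only 2 of the 68 were called, while 14 were called without pair 3.

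TP53INP1, a target that promotes autophagy and death, read 7.23, 7.88 and 7.80 with vehicle and 8.78, 8.54 and 8.71 with dexrazoxane. The groups were well apart, with a difference of 1.04 ± 0.15 (SE, limma adjusted p = 0.014), or 2.06-fold. TP53I3 (PIG3), a quinone oxidoreductase, read 8.70, 9.00 and 9.15 with vehicle and 9.56, 9.99 and 9.97 with dexrazoxane. It rose by 0.89 ± 0.08 (limma adjusted p = 0.0043), and these 2 targets kept their calls without any single pair. MDM2, the ligase that destroys p53, read 10.80, 11.09 and 10.89 with vehicle and 11.43, 11.53 and 11.54 with dexrazoxane, a rise of 0.58 ± 0.08 (limma adjusted p = 0.012), with an adjusted p of 0.066 without pair 1. CDKN1A (p21), the CDK inhibitor through which p53 halts the cycle, read 9.98, 10.53 and 10.46 with vehicle and 10.60, 11.05 and 10.77 with dexrazoxane. Dexrazoxane array 1 lay only just above vehicle array 2, and the rise was 0.48 ± 0.09 (limma adjusted p = 0.024), or 1.40-fold, with an adjusted p of 0.11 without pair 1. Among the other feedback genes PPM1D (0.46 ± 0.09), a phosphatase that switches the response off, and PHLDA3 (0.42 ± 0.08), an inhibitor of AKT, rose too. Repair and arrest targets that rose included XPC (0.47 ± 0.08), DDB2 (0.45 ± 0.08), SFN (14-3-3 sigma, 0.49 ± 0.09), SESN1 (0.42 ± 0.09) and GADD45A (0.32 ± 0.07). In the remaining lists SERTAD1 (0.65 ± 0.11), a CDK4-binding protein, ACER2 (0.61 ± 0.10), a ceramidase, and PERP (0.39 ± 0.07), a membrane protein of cell death, rose. FAS, the death receptor, was not called (0.24 ± 0.10, limma adjusted p = 0.21), nor were BAX (0.09 ± 0.08, limma adjusted p = 0.53) and GDF15 (0.21 ± 0.12, limma adjusted p = 0.37). The list of 31 BCL2 family, caspase and death receptor genes had 0 calls.

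Stress and immediate early genes changed singly rather than as groups. ATF3, a stress-induced transcription factor, read 7.80, 8.06 and 8.59 with vehicle and 9.20, 9.35 and 9.77 with dexrazoxane. The groups did not overlap, and the rise of 1.29 ± 0.08 (SE, limma adjusted p = 0.0022), or 2.44-fold, had the lowest adjusted p of any gene tested. The probe set preferred for specificity gave 0.16 for ATF3 (limma adjusted p = 0.31), so its probe sets disagree. The rest of the AP-1 and ATF list gave 1 further call in 19 genes, JUND (0.44 ± 0.08). Among 18 other immediate early genes NR4A2 (0.68 ± 0.14), a nuclear receptor, and ZFP36 (0.34 ± 0.07), which destabilises messenger RNAs, rose and 1 fell. That gene, MYC, the growth-promoting transcription factor, read 8.92, 8.46 and 8.91 with vehicle and 8.28, 8.16 and 8.34 with dexrazoxane, without overlap. It was lower by 0.51 ± 0.09 (limma adjusted p = 0.023), with an adjusted p of 0.11 without pair 1. DNAJB2, a co-chaperone, read 7.53, 7.37 and 7.39 with vehicle and 8.35, 8.25 and 8.50 with dexrazoxane, and HSPB8 (0.52 ± 0.08) was the other heat shock gene of 24 to rise. DNAJB2 was tightly grouped on both sides, with a rise of 0.93 ± 0.08 (limma adjusted p = 0.0043).

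Of 24 genes of ATF4, the factor of amino acid and ER stress, ATF3 was the 1 to rise, and SLC7A11 (-0.59 ± 0.10), the cystine transporter, and ALDH1L2 (-0.41 ± 0.09), a mitochondrial folate enzyme, fell. INHBE, an activin subunit also known to respond to ATF4, varied widely between arrays, at 5.93, 7.35 and 8.32 with vehicle and 5.28, 6.17 and 7.66 with dexrazoxane. Its fall of 0.83 ± 0.11 (limma adjusted p = 0.012) was present in each pair under an overlap of groups. None of 17 aminoacyl-tRNA synthetase genes and none of 24 ER chaperone genes was called.

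Some autophagy and lysosome genes rose by small amounts. Of 32 autophagy genes 6 were called higher (18.8%, against 2.42% of all genes) and none lower, 27 lay above 0, and the median was 0.18. Of 34 lysosome genes 4 were called higher (11.8%) and none lower, 28 lay above 0, and the median was 0.16. Over all genes tested, 8046 of 14731 lay above 0 and the median was 0.02. No gene of either list was called without pair 1, and without pair 3 the counts higher were 3 and 1. TP53INP2, which recruits LC3 proteins to autophagosomes, read 7.32, 7.23 and 7.16 with vehicle and 7.79, 7.74 and 7.68 with dexrazoxane. The arrays of each group lay within a narrow band and the rise was 0.50 ± 0.07 (limma adjusted p = 0.015). GABARAPL1 (0.53 ± 0.08), an LC3 relative, MAP1LC3B (0.37 ± 0.07), the LC3 gene most used as a marker of the process, OPTN (0.41 ± 0.08), a receptor for cargo, ATG2A (0.43 ± 0.08), a lipid transfer protein, and ATG4B (0.38 ± 0.09), the protease that matures LC3, rose too. NEU1, a sialidase, read 7.97, 8.05 and 8.38 with vehicle and 8.42, 8.45 and 8.84 with dexrazoxane, a rise of 0.44 ± 0.07 (limma adjusted p = 0.020) without overlap. NPC2 (0.35 ± 0.07), which carries cholesterol out of the lysosome, and SGSH (0.37 ± 0.07), a sulfatase of heparan sulfate, were also called higher, and the call of SMPD1 rested on 1 of probe sets that disagree in sign.

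**Figure D4:**
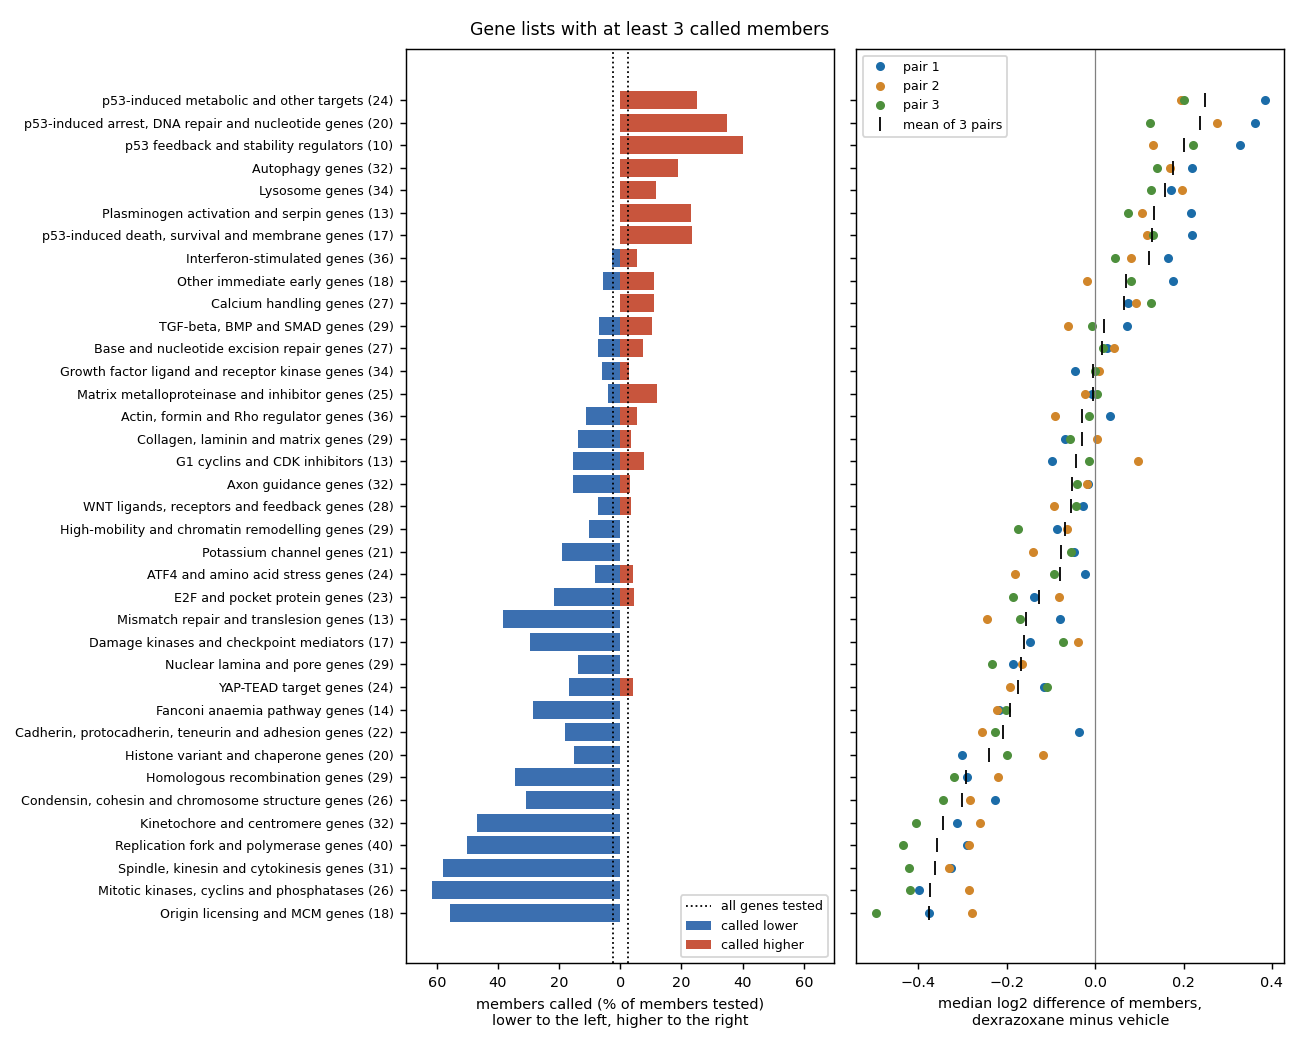
Left, share of tested members called higher (right of 0) or lower (left of 0) in the paired limma fit, in %, for each gene list with at least 3 called members, with dotted lines at the shares over all genes; right, median log2 difference of the same members in each pair (points) and over the 3 pairs (bars). Licensing, mitotic kinase, spindle, fork and kinetochore lists reach 46.9% to 61.5% lower, the p53, autophagy and lysosome lists lie above 0 in each pair, and several lists near the middle change sign between pairs.

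The length of a gene went with its direction. The share called lower was 0.926% of 3671 genes spanning under 10 kb, 3.54% of 2233 genes of 50 to 100 kb, 6.29% of 699 genes of 200 to 400 kb and 9.84% of 315 genes over 400 kb. The share called higher ran the other way, from 3.16% under 10 kb to 0.317% over 400 kb, where OPCML, an adhesion protein, was the 1 gene to rise. Median spans were 60.1 kb for the genes called lower, 15.8 kb for those called higher and 26.6 kb for those not called. Removing the members of 21 lists on the chromosome cycle, repair and chromatin left 9.62% lower over 400 kb and 0.694% under 10 kb. The medians over 400 kb were -0.08, -0.11 and -0.07 in pairs 1 to 3. Without pairs 1, 2 and 3 in turn, 6, 29 and 22 of the 315 genes were called lower. Spans are those of RefSeq genes on GRCh38.p14 and count introns.

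**Figure D5:**
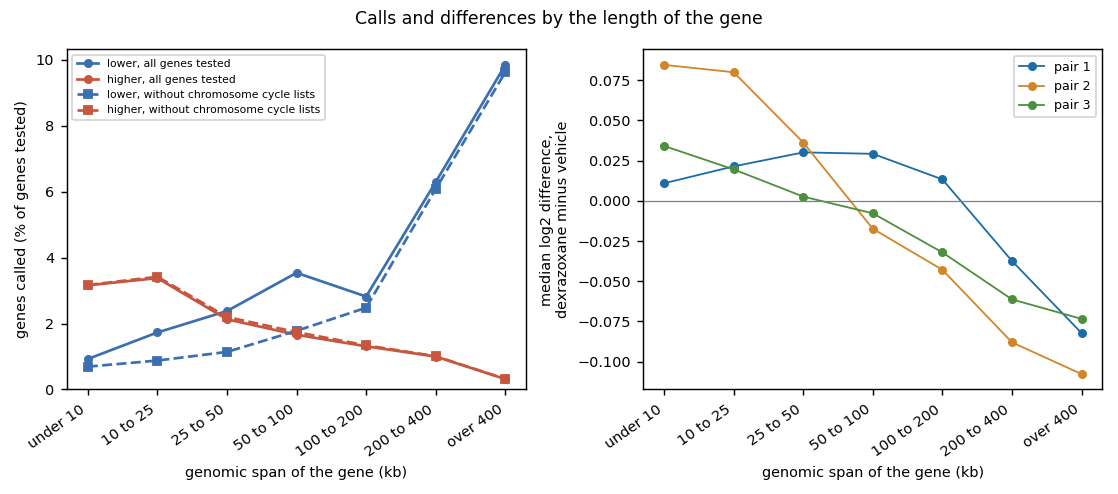
Left, share of genes called higher or lower in the paired limma fit (y axis, %) by class of genomic span (x axis, kb), for all genes tested (solid) and without members of the chromosome cycle, repair and chromatin lists (dashed); right, median log2 difference of each class in each pair. The share lower rises to 9.84% in genes over 400 kb and the share higher falls to 0.317%, and the class medians fall below 0 in each pair from 200 kb upward.

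KCNMA1, the pore of a potassium channel opened by calcium and voltage, spans 768 kb. It read 10.08, 10.24 and 9.87 with vehicle and 9.05, 8.86 and 9.06 with dexrazoxane, and fell by 1.07 ± 0.11 (SE, limma adjusted p = 0.0052), or 2.10-fold, without overlap. KCNU1, a related channel, read 7.35, 7.47 and 7.64 with vehicle and 6.46, 6.66 and 6.68 with dexrazoxane, a fall of 0.89 ± 0.08 (limma adjusted p = 0.0043) that left the groups well apart. With KCNQ5 (-0.48 ± 0.09) and KCTD12, which is not itself a channel, they made 4 of 21 genes of the potassium channel list called lower. That was 19%, against 2.44% of all genes, with none higher and 2 called lower without pair 1. Among 58 tested genes with a KCN symbol, 3 were called lower (5.17%) and none higher, with a median of -0.02. ROR1, a receptor of noncanonical WNT signals that spans 407 kb, read 8.03, 7.66 and 7.42 with vehicle and 7.06, 6.42 and 6.55 with dexrazoxane. It was 2.03-fold lower, at -1.02 ± 0.09 (limma adjusted p = 0.0043), and the receptor FZD1 (-0.55 ± 0.08) also fell, in a list of 28 WNT genes with 1 rise, DVL3. TENM2, a teneurin that joins neurons across synapses and spans 1285 kb, read 8.91, 8.87 and 9.03 with vehicle and 8.05, 7.67 and 8.17 with dexrazoxane. Its difference was -0.97 ± 0.09 (limma adjusted p = 0.0043), again without overlap. CADM1 (-0.38 ± 0.08), NCAM1 (-0.39 ± 0.07) and NRCAM (-0.37 ± 0.08) were the other 3 of 22 adhesion genes called lower. Without pair 1 there were 2 calls, and CADM1 (-0.30), NCAM1 (-0.38) and NRCAM (-0.43) were not called but stayed below 0. KCNMA1, KCNU1, ROR1 and TENM2 kept their calls without any single pair. PRKCA, a protein kinase C gene of 508 kb chosen after its values were seen, read 9.85, 9.87 and 9.69 with vehicle and 9.28, 9.26 and 9.21 with dexrazoxane, at -0.56 ± 0.07. Chosen in the same way, TMEM132D (832 kb) differed by -0.90 ± 0.08 and SMYD3 (758 kb), a lysine methyltransferase, by -0.58 ± 0.08.

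Guidance, matrix and cytoskeleton genes gave fewer calls. Of 32 axon guidance genes 5 fell and 1 rose: EFNA5 (-0.58 ± 0.08), a tethered ephrin ligand, the semaphorin receptors NRP1 (-0.43 ± 0.09) and NRP2 (-0.45 ± 0.09), the netrin receptor DCC (-0.42 ± 0.07) and EFNB2 (-0.38 ± 0.08) were lower. Without pair 1 none of the 32 was called, although EFNA5 (-0.61), NRP1 (-0.34), NRP2 (-0.50) and DCC (-0.41) still lay below 0, and 3 guidance genes were called lower without pair 3. FMNL2, a formin that builds actin filaments over a gene of 315 kb, read 10.29, 10.16 and 10.06 with vehicle and 9.48, 9.13 and 9.38 with dexrazoxane. It fell by 0.84 ± 0.09 (limma adjusted p = 0.0063), without overlap. SHROOM2 (-0.89 ± 0.14), which links actin to cell junctions, DIAPH3 (-0.52 ± 0.08), another formin, and ARHGAP18 fell with it, while RHOB (0.58 ± 0.08) and RAC2 (0.34 ± 0.08), small GTPases, rose in the same list of 36. Without pair 1 this list had 2 genes called lower, FMNL2 and SHROOM2, and 1 called higher, RHOB, while DIAPH3 (-0.58) and ARHGAP18 (-0.45) were not called but stayed below 0.

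Of the 15 largest falls without overlap, 3 were in genes that make or carry glycosaminoglycans, a grouping made after their values were seen and with no list of its own. EXT1, the copolymerase that elongates heparan sulfate, read 10.20, 10.18 and 10.24 with vehicle and 9.48, 9.47 and 9.50 with dexrazoxane. The arrays within a group differed far less than the groups, with a fall of 0.72 ± 0.07 (SE, limma adjusted p = 0.0049), or 1.65-fold. GPC6, a glypican that carries heparan sulfate and spans 1191 kb, read 7.93, 8.16 and 8.28 with vehicle and 7.40, 7.07 and 7.72 with dexrazoxane, at -0.73 ± 0.12 (limma adjusted p = 0.018, and 0.051 without pair 1). HAS2, the hyaluronan synthase, read 8.13, 7.99 and 8.25 with vehicle and 7.32, 7.04 and 7.43 with dexrazoxane, at -0.86 ± 0.07 (limma adjusted p = 0.0043). EXT1 spans 317 kb and HAS2 29.3 kb, and whether span had a part in these falls was not tested. The proteases ADAMTS6 (-0.82 ± 0.07, 333 kb) and ADAMTS18 (-0.68 ± 0.08, 153 kb), which cut matrix, fell without overlap. Of 29 matrix genes 1 was higher and 4 were lower. Besides HAS2 these were COL13A1 (-0.43 ± 0.07), LAMB1 (-0.44 ± 0.08) and THBS1 (thrombospondin 1), a matrix glycoprotein, which read 10.55, 10.35 and 10.20 with vehicle and 9.93, 9.75 and 9.59 with dexrazoxane. THBS1 fell by 0.61 ± 0.07 (limma adjusted p = 0.0086) without overlap, though the probe set preferred for specificity gave -0.32 (limma adjusted p = 0.13). Without pair 1, HAS2 and THBS1 were still called, and COL13A1 (-0.41) and LAMB1 (-0.37) lay at similar values without a call.

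Targets of YAP and TEAD, the effectors of the Hippo pathway, leaned downward, with 4 of 24 lower, 1 higher and a median of -0.17. These were 16.7% lower, against 2.44% of all genes, and 4.17% higher, against 2.42%. WWTR1 (TAZ, -0.46 ± 0.08), a coactivator of the pathway, PTPN14 (-0.38 ± 0.08), RBMS3 (-0.53 ± 0.12) and CCN1 (-0.35 ± 0.07), a secreted matrix protein, fell and AJUBA (0.35 ± 0.07) rose, and no member was called without pair 1. RBMS3 spans 729 kb, WWTR1 208 kb, PTPN14 203 kb, AJUBA 11.4 kb and CCN1 3.19 kb. The median span of the list was 74.8 kb, against 26.7 kb over all genes tested. Whether span had a part in these falls was not tested. In TGF-beta and BMP signalling, SMAD3 (-0.57 ± 0.08), which carries the TGF-beta signal, fell. BMP2, a ligand of the other branch, read 5.88, 5.90 and 5.82 with vehicle and 6.49, 6.60 and 6.42 with dexrazoxane, and ID2 (0.73 ± 0.10), a known BMP target, rose. BMP2 was tightly grouped and rose by 0.64 ± 0.07 (limma adjusted p = 0.0082), kept without any single pair. TGFB1 was called higher at 0.53 ± 0.09 but had the opposite sign on its more specific probe set.

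Secreted proteases, inhibitors and epithelial-type genes were among the largest rises. SERPINI1 (neuroserpin), an inhibitor of tissue plasminogen activator, read 5.82, 6.03 and 5.89 with vehicle and 6.97, 6.93 and 7.15 with dexrazoxane. It was 2.15-fold higher, at 1.10 ± 0.09 (SE, limma adjusted p = 0.0043), with the groups far apart. SERPINB1 (0.56 ± 0.08) and SERPINB5 (0.54 ± 0.08) made it 3 of 13 genes of the plasminogen and serpin list (23.1%, against 2.42% of all genes), with none lower and 1 called higher without pair 1. MMP12, the macrophage metalloelastase, was uneven, at 4.34, 5.93 and 6.20 with vehicle and 5.95, 6.78 and 7.83 with dexrazoxane. Dexrazoxane array 1 lay among the vehicle arrays, while each pair rose, by 1.37 ± 0.15 on average (limma adjusted p = 0.0065). MMP3 (stromelysin 1) behaved alike, at 7.29, 8.86 and 9.09 with vehicle and 8.28, 9.50 and 9.71 with dexrazoxane, a paired rise of 0.74 ± 0.09 (limma adjusted p = 0.010). TIMP1 (0.41 ± 0.08), an inhibitor of these enzymes, was the remaining rise of 25 genes. PPL (periplakin), a protein of the cornified envelope of skin, read 5.07, 5.39 and 5.31 with vehicle and 6.34, 6.13 and 6.00 with dexrazoxane, and LCE1B (0.82 ± 0.10), a late envelope gene, was the other of 17 such genes to rise. PPL rose by 0.90 ± 0.12 (limma adjusted p = 0.012) without overlap.

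Other rises by the naming rule were CYP4F3 (0.96 ± 0.13), which inactivates leukotriene B4, FKBP1B (0.93 ± 0.09), which steadies calcium release channels, ARL14 (0.87 ± 0.10), a small GTPase, CITED2 (0.81 ± 0.09), a coregulator of hypoxia signalling, AHNAK2 (0.80 ± 0.07), the long non-coding RNA UCA1 (0.80 ± 0.09), BEX2 (0.79 ± 0.07) and GREB1 (0.72 ± 0.07). The rule took only genes whose groups did not overlap, so that trait of these 8 is no finding. Their calls were kept without any single pair. Falls named by the same rule were SLC26A4 (-0.84 ± 0.10), an anion exchanger, LRIG1 (-0.66 ± 0.07), a brake on EGF receptors, and PDGFC (-0.61 ± 0.07), a growth factor.

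Interferon-stimulated genes gave 2 higher and 1 lower of 36, and a median of 0.12. The share higher was 5.56%, against 2.42% of all genes, and the share lower, 2.78%, was close to the 2.44% of all genes. ISG15, a ubiquitin-like protein, read 8.31, 8.70 and 8.96 with vehicle and 9.08, 9.22 and 9.60 with dexrazoxane, a rise of 0.64 ± 0.08 (limma adjusted p = 0.010) with groups just apart. TAP1 (0.61 ± 0.09), a peptide transporter for antigen presentation, rose and DDX60 (-0.45 ± 0.09) fell. Of 18 HLA genes, a family counted after the values were seen, HLA-B (0.41 ± 0.07), HLA-C (0.34 ± 0.07) and HLA-E (0.37 ± 0.08) rose, and these closely related genes may share probes. No interferon or HLA gene was called without pair 1.

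Iron genes were looked at because the hydrolysed drug binds iron. Of 15 tested genes for iron uptake, storage and sensing 0 were called, with a median of -0.01. TFRC, the transferrin receptor that rises when cells lack iron, read 12.63, 11.95 and 11.71 with vehicle and 12.77, 11.97 and 11.93 with dexrazoxane, and the difference of 0.13 ± 0.08 was not called (limma adjusted p = 0.38). The 28 targets of hypoxia-inducible factors, which iron chelation is known to raise, gave 1 rise, KDM4B (0.51 ± 0.09), a histone demethylase, and a median of 0.02.

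In 13 of the 69 lists no gene was called in either direction. Besides those already given, these were 28 proteasome, 36 cytosolic ribosomal protein, 40 splicing factor, 32 transcription elongation, 22 cholesterol and fatty acid, 19 glycolysis and 28 respiratory chain genes, and endothelial markers. Respiratory chain genes had a median of 0.12 without a call. Lists with 1 to 3 calls not yet named included calcium handling (FKBP1B, TRPV2 and ATP2B4 higher), growth factors (PDGFC and DDR2 lower, IGFBP6 higher), focal adhesion (ZYX higher, LPP lower), RAS-MAPK output (UPP1 higher, at 0.53 ± 0.08), ribosome biogenesis (UTP20 lower) and the mitochondrial ribosome (MRPL24 lower, at -0.46 ± 0.08). Over all lists 66 genes were called higher and 166 lower, and 291 higher and 194 lower genes were in no list.

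Markers of the labelled cell type and of others were mixed. Of 16 mesenchymal markers 15 passed the filter. VIM (vimentin) averaged 13.80 with vehicle and 13.83 with dexrazoxane, SPARC 11.93 and 11.91, and FN1 (fibronectin) 11.99 and 12.06, but with vehicle COL1A2 (5.71), THY1 (6.08) and PRRX1 (5.39) lay low and NT5E (4.93) was left out by the filter, which uses the mean over all 8 arrays. COL6A2 was the 1 mesenchymal marker to rise. The epithelial markers EPCAM and CDH1 lay under the filter in both groups, as did PTPRC of leukocytes and CDH5 of endothelium. Other members of those lists were bright with vehicle, among them the keratins KRT18 (11.16) and KRT8 (9.70), CD3D (8.58) of T cells, and TIE1 (8.63) and ROBO4 (7.87) of endothelium. CD2, the 1 leukocyte marker called, fell by 0.40 ± 0.07 (limma adjusted p = 0.026). Of 8 tested epithelial markers 2 rose, KRT8 (0.51 ± 0.10) and KRT7, whose probe sets disagree in sign. The log2 of the summed epithelial markers ran from 11.69 to 11.93 on the vehicle arrays and from 11.99 to 12.24 on the dexrazoxane arrays. Leukocyte sums ran from 9.45 to 9.96 and 9.48 to 10.09, and endothelial sums from 9.89 to 10.01 and 9.93 to 10.16. The part of these markers in any result above was not tested.

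Other probe sets of the same genes were not used in the fit. For 203 genes called lower that had another probe set, 92.6% of 392 such probe sets had the same sign. Among 166 genes called higher, 85.3% of 273 did, and among genes not called, 66.2% of 11853. Some calls were lost with another choice of probe set. On the more specific probe set ASPM gave -0.36, NCAPG -0.37, RAD1 -0.19, MDM2 0.41, PERP 0.42 and HSPB8 0.15 (limma adjusted p from 0.056 for ASPM to 0.31 for HSPB8), and as the mean of their probe sets GREB1 gave 0.18, KDM4B 0.13, RHOB 0.25, NRP1 -0.13 and NRP2 -0.21, none of them called. By chromosome, 46 of 1046 genes on chromosome 19, which has short genes with a median span of 15.2 kb here, were higher (4.40%) and 4 lower (0.382%), while chromosome 13, with a median span of 48.7 kb, had 1 higher and 13 lower of 260. Among gene families counted by symbol, zinc finger genes gave 5 higher and 4 lower of 377 and solute carriers 6 and 3 of 284.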

How the data were processed

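Expression was measured on 1-colour Affymetrix arrays. The authors deposited log2 values for each probe set. The submitters' processing notes name RMA as the method. RMA subtracts background, equalises the distributions of arrays and summarises probes, so shifts shared by most genes are removed. Of 54675 probe sets, 41097 had 1 symbol in the platform annotation, 1801 several and 11777 none. Each gene was read from its brightest probe set over the 8 arrays of the series, and genes under the 40th percentile of all probe sets (log2 4.83) were left out, leaving 14731. Differences were fitted with limma 3.58.1 (R 4.3.3; lmFit, eBayes) with the array number as a block, and p-values were adjusted by Benjamini-Hochberg over all genes tested. Same-numbered arrays were treated as pairs by a rule set for this comparison, and the labels state no pairing. Such arrays also deviated together from their group means (correlations 0.82, 0.57 and 0.72). These correlations come from the same values as the fit, so they are no separate support for the block. Called means an adjusted p under 0.05. Array number limits the precision: 3 pairs. Spans and promoters are from RefSeq (GRCh38.p14).

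Named genes are the 15 largest rises and 15 largest falls among called genes whose groups do not overlap, up to 5 called members of each list, or up to 2 members with the smallest p where none is called, and TOP2A and TOP2B; other names were chosen after their values were seen. The comparison, its 69 lists and its tests were chosen with earlier results of these data known. Alternatives changed the block, filter, probe set, normalization, variance model and pairs. The doxycycline arrays were used only for the filter and for choosing probe sets.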

Additional observations from a re-analysis of the deposited data

How the results depend on the processing

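Calls depended on the block, on pair 1 and on which probe sets were tested, while the direction of a named gene turned only with another choice of probe set. Against 357 genes higher, 360 lower and 7 past 2-fold, limma without the replicate block called 0, 0 and 0, also with no filter or with median centring, and 0, 1 and 1 with specific probe sets or every probe set (these combinations were added after seeing the data). Leaving out 1 pair gave 42 to 416 higher, 56 to 414 lower and 8 to 13 past 2-fold. No filter gave 195 higher and 230 lower, specific probe sets 175 and 225, every probe set 164 and 271, trended robust variance 992 and 852, a 60th percentile filter 553 and 512, and the mean of probe sets 3 genes past 2-fold. Centring each array on the tested genes, added after seeing the data, gave 244 higher and 467 lower. Of 2663 alternative values for 209 named genes, 2130 kept direction and call, 500 lost the call, 25 gained it and 8 turned. All 8 were among the 169 values from specific probe sets and the 205 from the mean of probe sets. Dropping the block or changing the filter or variance model leaves a difference as it was, so direction could not turn there. Called genes moved alike in each pair, so leaving out a pair could not turn them either. Specific probe sets turned FANCM (0.10), KRT7 (-0.095), LIN37 (-0.018), PLXNB2 (-0.10), SMPD1 (-0.22) and TGFB1 (-0.13), and the mean of probe sets turned HMGA2 (0.0092) and PMS1 (0.0058). The causes were not tested, beyond the smaller number of arrays when a pair is left out. Among 690 alternative list medians 38 changed sign, 2 of them in the 27 lists with a median of at least 0.1 in size.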

Other observations

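Probe sets without a single gene symbol also carried differences. Of 5541 such probe sets above the filter, limma called 0 after Benjamini-Hochberg adjustment over them, and 729 (13.2%) had an unadjusted p under 0.05 in the paired fit, against 19.5% of 27264 probe sets with 1 symbol.

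Among genes outside every list and chosen after their values were seen, ADGRG1, an adhesion receptor, was higher on all 3 dexrazoxane arrays (difference 0.71 ± 0.09, SE, limma adjusted p = 0.012), as were NECTIN4, a cell adhesion protein (0.69 ± 0.08, limma adjusted p = 0.0077), and GATA2, a transcription factor of blood progenitors (0.68 ± 0.10, limma adjusted p = 0.015). SIGLEC15, a sialic acid receptor, was lower on all 3 (-0.66 ± 0.08, limma adjusted p = 0.0095).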
